A study of Mus musculus with 6 samples.

Results

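Cholesterol and fatty acid synthesis was followed here through 31 named genes, out of 49671 genes in the deposited tables. They were picked by symbol for their place in these pathways, with earlier results of these data known. They are 6 enzymes of the mevalonate steps, 11 enzymes of the squalene and sterol steps, 5 genes of the SREBP control system, 6 genes of fatty acid synthesis, and 3 genes of cholesterol efflux and its nuclear receptor. The RNA came from the spleens of female F1 mice of a C57BL/6 mother (mus) and an M. m. castaneus father (cast), and all 6 samples were CD3+ T cells taken off enrichment columns. The mothers carried 1 deleted copy of Xist, which skews X inactivation so that the cast X is the silent one, and both groups share this cross. In the unstimulated group (day 0) the cells were collected straight after isolation, without culture. In the stimulated group (day 2) they had spent 48 h in RPMI-1640 medium. Anti-CD3 was bound to the plate at 1 µg/ml and anti-CD28 was in solution at 10 µg/ml. These antibodies engage the T cell receptor complex and the costimulatory receptor CD28. Each group has 3 samples labelled as biological replicates, with no age of the mice in the labels. The groups differ in culture and time as well as in the antibodies, so these cannot be told apart.

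Animal cells build cholesterol from acetyl-CoA by way of mevalonate, isoprenoid diphosphates, squalene and a chain of sterol intermediates, and they build fatty acids from the same acetyl-CoA by way of malonyl-CoA. When sterols in the endoplasmic reticulum run low, SCAP carries the membrane-bound factors SREBP1 and SREBP2 to the Golgi, where they are cut and released to switch on synthesis genes, while INSIG proteins hold SCAP back when sterols are plentiful. When oxysterols accumulate, liver X receptors (LXR) switch on the pumps ABCA1 and ABCG1, which export cholesterol. Lymphocytes that enter growth and division need membrane lipid, and SREBP activity is known to be required for T cell blast formation.

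Total RNA depleted of ribosomal RNA was sequenced, and 2 kinds of value were available. RPKM, read counts scaled to the gene's length in kilobases and to sequencing depth, gives the level from both alleles together and allows genes to be compared per length. Counts of reads assigned to the mus or the cast allele give the share of each allele. Allelic depth was 9.61 M to 11.9 M reads in the unstimulated and 14.9 M to 20.2 M in the stimulated libraries, with 49.3% to 49.4% of autosomal reads on cast. The labelled cell type and stimulus were checked on marker genes. The summed RPKM of 11 T cell genes was 811 to 992 unstimulated and 745 to 800 stimulated, and Il2ra, the induced interleukin 2 receptor chain, went from a mean of 4.96 to 284. Of 5 activation genes checked, 3 were higher, namely Il2ra, Gzmb (18.4 to 2090) and Mki67 (17.6 to 76.7). The 2 lower ones were Klf2 (314 to 1.25) and the activation marker Cd69 (61.8 to 7.10). RNA of other cells was present too and changed between the groups. Summed RPKM was 1366 to 3688 against 25.8 to 33.1 for 12 myeloid genes, 446 to 773 against 52.2 to 88.6 for 10 B cell genes, 256 to 355 against 11.1 to 16.9 for 7 NK cell genes, and 80.6 to 1340 against 2.03 to 14.6 for 8 erythroid and platelet genes. All of the myeloid, B cell and NK cell genes were lower after stimulation. Unstimulated replicate 3 had the highest myeloid, B cell, NK cell and erythroid sums and an Mki67 (a proliferation gene) RPKM of 37.9, against 6.81 and 8.10 in the other unstimulated libraries. In bulk RNA, fewer cells of a type and less RNA per cell cannot be told apart.

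The stretches before the start sites of 5 of the genes are shown first, because they carry the letters that the known regulators of this pathway read. NF-Y binds CCAAT (read as ATTGG on the other strand), USF and other E-box factors, SREBP among them, bind CACGTG, and TCACNCCAC is the core of the sterol response element that SREBP binds. Hmgcs1, Mvk, Fasn and Insig1 rose after stimulation and Abca1 fell. The sequences are from RefSeq on GRCm38.p6, each written 5′ to 3′ on the strand of its gene and ending where the GENCODE M21 gene begins or before, with the 3 motifs in capitals. They lie at chr13:119690101-119690350 (plus strand) for Hmgcs1, chr5:114444019-114444268 (plus) for Mvk, chr11:120824548-120824797 (minus) for Fasn, chr5:28071162-28071362 (plus) for Insig1 and chr4:53159896-53160145 (minus) for Abca1.
Hmgcs1: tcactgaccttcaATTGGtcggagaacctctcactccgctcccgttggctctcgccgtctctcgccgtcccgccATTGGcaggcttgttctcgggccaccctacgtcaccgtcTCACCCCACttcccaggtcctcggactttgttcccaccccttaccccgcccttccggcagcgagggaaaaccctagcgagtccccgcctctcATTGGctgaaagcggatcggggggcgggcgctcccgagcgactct
Mvk: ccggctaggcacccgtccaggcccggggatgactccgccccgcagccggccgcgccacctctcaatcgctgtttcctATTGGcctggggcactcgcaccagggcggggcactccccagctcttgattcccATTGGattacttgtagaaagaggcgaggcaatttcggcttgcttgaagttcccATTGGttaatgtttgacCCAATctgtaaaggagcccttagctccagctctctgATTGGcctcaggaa
Fasn: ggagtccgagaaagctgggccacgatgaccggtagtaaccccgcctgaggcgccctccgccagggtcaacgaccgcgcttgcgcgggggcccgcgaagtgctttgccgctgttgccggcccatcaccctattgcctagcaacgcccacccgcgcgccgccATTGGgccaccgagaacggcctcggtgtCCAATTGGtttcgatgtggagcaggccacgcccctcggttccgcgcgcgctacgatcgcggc
Insig1: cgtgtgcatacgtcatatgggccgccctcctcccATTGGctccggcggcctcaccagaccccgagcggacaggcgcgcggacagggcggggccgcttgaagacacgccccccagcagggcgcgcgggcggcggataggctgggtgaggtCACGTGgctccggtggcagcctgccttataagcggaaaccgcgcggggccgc
Abca1: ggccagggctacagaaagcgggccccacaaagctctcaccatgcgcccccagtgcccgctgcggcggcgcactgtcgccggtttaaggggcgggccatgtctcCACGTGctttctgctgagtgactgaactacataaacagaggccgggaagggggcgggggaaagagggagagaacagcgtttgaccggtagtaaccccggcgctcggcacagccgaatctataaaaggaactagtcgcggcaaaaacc
The Hmgcs1 stretch holds the sterol response element core 137 bases before the RefSeq start, between CCAAT boxes at 176 and 45 bases before it, with another CCAAT box at 237. Mvk has 5 CCAAT boxes in 250 bases. Fasn has 3, of which 2 overlap on opposite strands in CCAATTGG. Insig1 has 1 CCAAT box and 1 CACGTG, and Abca1 has 1 CACGTG and no CCAAT.

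RefSeq start windows were at hand for 25 of the 31 genes, as 33 windows of 250 bases before a start, and each motif was searched on both strands. CCAAT was found in 20 of the 33 windows (60.6%), which belong to 19 of the 25 genes, and in 33.8% of all 32851 windows of that length. GGGCGG, the GC box read by SP1, was in 23 windows (69.7%), against 32.7% of all. CACGTG was in 6 windows (18.2%), those of Abca1, Dhcr7, Hsd17b7, Insig1, Sc5d and Scap, against 6.02% of all. TCACNCCAC was in 1 window, that of Hmgcs1, against 1.05% of all. CCAAT-containing windows belonged to genes that rose strongly (Hmgcs1, Cyp51, Idi1) and weakly (Insig2, Ebp) alike. A match is only a run of letters, and windows of 1 gene can overlap. All windows were used for the background, without matching for expression or base composition, so these shares do not show a trait of the pathway.

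After stimulation 27 of the 31 genes were higher, 3 were lower and 1, Scap, did not pass the test (limma on log2(RPKM + 1), adjusted p under 0.05). Of all 13288 genes tested, 31.2% were higher and 48.9% lower, or 80.1% in either direction, so passing the test was common and the count is best read by direction and size. A log2 change of at least 1 upwards was seen in 22 of the 31 genes and in 12.4% of all genes, and of at least 1 downwards in 2 and in 24.4%. The median log2 change was 1.56 over the 31 genes and -0.24 over all genes tested. Since the genes were chosen with earlier results of these data known, these contrasts are descriptive. All 23 enzymes of synthesis rose, and the 3 genes that fell are the whole efflux and LXR group. All libraries of a group lay on 1 side of the other group's for 28 genes upwards and 3 downwards, against 32.7% and 50.7% of all genes. The symbols were all found in the table and all passed the filter on low values, although Fdps passed only through its stimulated libraries. Scaling matters for the background: with the median of each library set equal, 40.9% of all genes were higher and 39.2% lower (80.1% either way), and the 31 genes had a median of 1.82 against 0.02. Quantile normalisation gave 40.6% and 36.7% (77.3% either way), and edgeR on the allelic counts summed per gene gave 35.8% and 38.5% (74.2%). Without unstimulated replicate 3, the library with the most RNA of other cells, the counts for the 31 genes were again 27 higher and 3 lower. Unstimulated replicates 1 and 2 still had myeloid sums of 1366 and 1764, against at most 33.1 stimulated. The part of other cells was therefore not tested by this. The plot of RPKM in each library and the plot of the change of each gene give these values gene by gene.

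**Figure D1:**
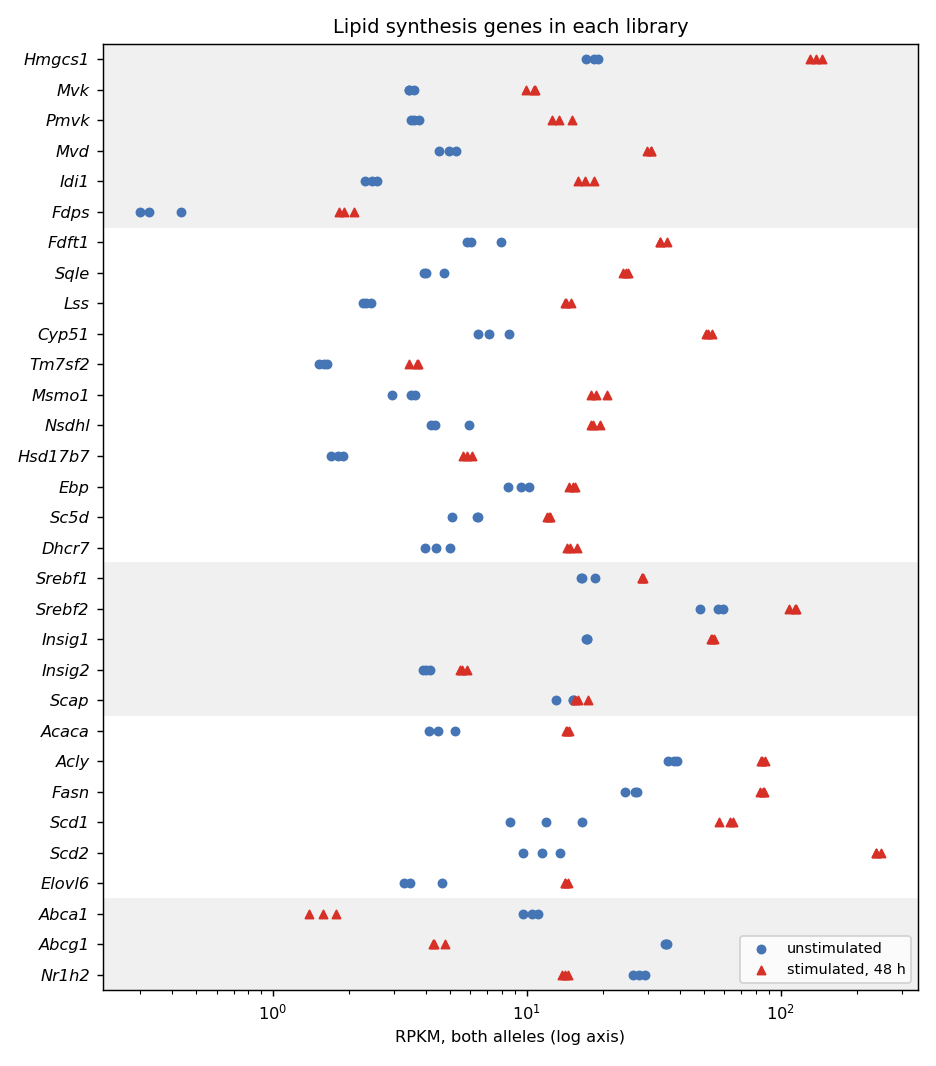
RPKM (both alleles, log axis) of the 31 genes in the 3 unstimulated (blue circles) and 3 stimulated (red triangles) libraries, with shading marking the functional groups from the mevalonate steps at the top to efflux and LXR at the bottom. In 28 genes every stimulated library lies to the right of every unstimulated one, with Scd2 moving farthest, and in Abca1, Abcg1 and Nr1h2 all lie to the left.

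**Figure D2:**
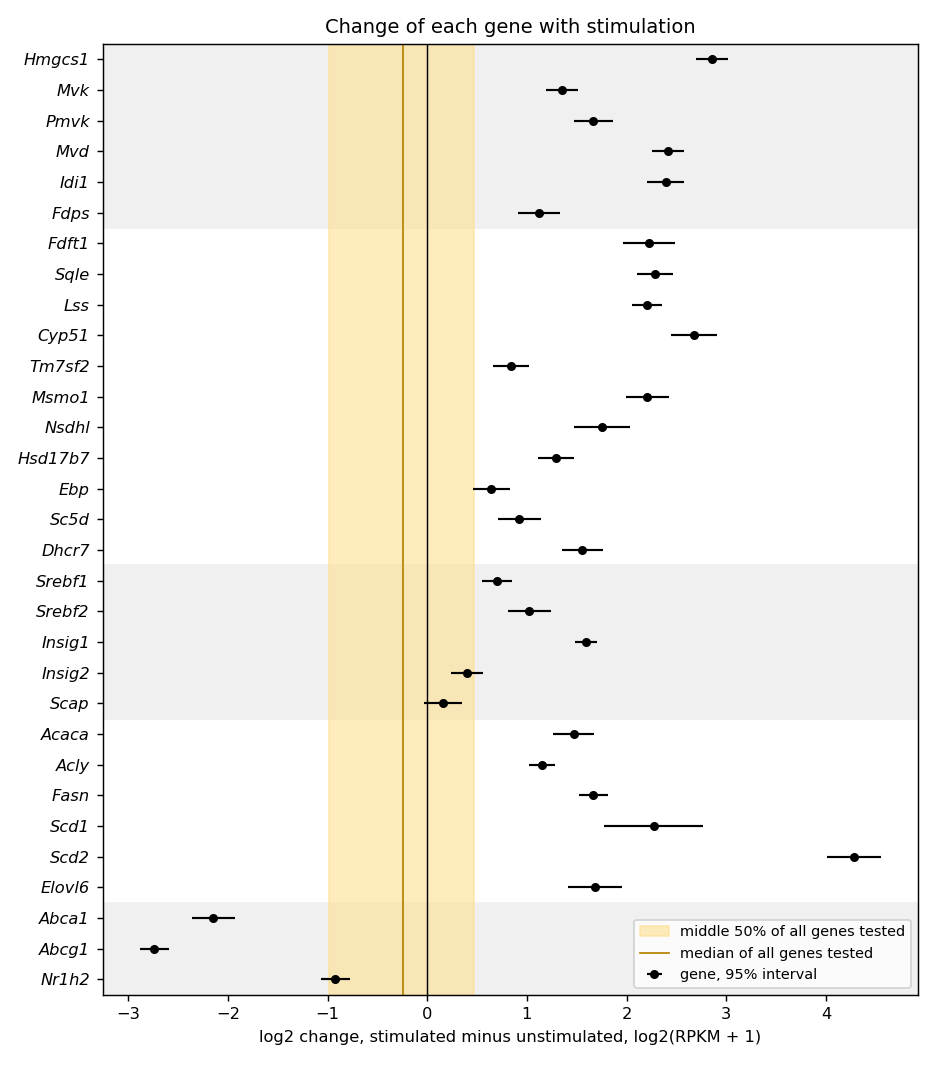
Log2 change of each gene on the log2(RPKM + 1) scale, stimulated minus unstimulated, with 95% intervals from limma. The yellow band is the middle 50% of the 13288 genes tested, from -0.99 to 0.47, with their median of -0.24 as a line. Of the 31 genes, Insig2, Scap and Nr1h2 have estimates inside the band.

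The 6 mevalonate-step enzymes rose with a median log2 change of 2.03. Hmgcs1, the synthase of HMG-CoA at the entry of the mevalonate steps, lies at chr13:119690379-119708260 (plus strand, mm10). Its RPKM was 17.1, 18.998 and 18.5 unstimulated and 137, 130 and 145 stimulated. The groups were far apart, with means of 18.2 ± 1.00 and 138 ± 7.61 (SD, n = 3 each), a 7.57-fold difference and a log2 change of 2.85 ± 0.07 (SE, adjusted p = 5.01e-07). Mvk, mevalonate kinase, had 3.42, 3.44 and 3.61 against 9.92, 10.7 and 10.8 RPKM, a log2 change of 1.35 ± 0.07. Pmvk, which adds the next phosphate, had 3.49, 3.60 and 3.75 against 15.02, 12.5 and 13.4, a log2 change of 1.66 ± 0.08. Of these 2 kinases, which act in succession, neither reached the change of the enzymes on either side of them. Mvd, the decarboxylase that makes isopentenyl diphosphate, had 4.93, 5.26 and 4.53 against 29.8, 30.9 and 30.7 RPKM, 6.22-fold more on average. Idi1, the isomerase of that product, had 2.30, 2.57 and 2.45 against 18.4, 17.0 and 15.9, a 7.01-fold difference. Their log2 changes were 2.42 ± 0.07 and 2.39 ± 0.08, below that of Hmgcs1. Fdps, which joins the units into farnesyl diphosphate, was listed at only 0.327, 0.299 and 0.435 against 1.91, 1.82 and 2.09 RPKM, with a log2 change of 1.12 ± 0.09 that the pseudocount of 1 holds down. On the allelic counts summed per gene (46 reads unstimulated, 742 stimulated) edgeR gave Fdps a log2 change of 3.57 (adjusted p = 9.01e-06). Its level is uncertain, since 5 other genes carry near-identical stretches (at least 95% identity over 100 bases) and 26.7% of its exonic bases overlap Gm43738 on the same strand. Of the Idi1 transcript, 22.6% has such stretches in Gm13502 and Gm35570. Of the Hmgcs1 exonic bases, 12.1% overlap Gm48342 on the other strand.

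All 11 enzymes from squalene to cholesterol rose, with a median log2 change of 1.76, and the steps up to lanosterol demethylation changed more than most later ones. Fdft1, squalene synthase, had 5.83, 6.01 and 7.88 RPKM against 33.6, 33.3 and 35.6, a 5.20-fold difference with a log2 change of 2.22 ± 0.11. Of its exonic bases, 18.3% overlap Ctsb on the other strand, and without a stated strand setting reads of the 2 cannot be told apart. Of the Fdft1 transcript, 33.75% also has a near-identical copy in Gm6781. Sqle, the squalene epoxidase that is a slow step of the pathway, had 3.95, 4.74 and 4.01 against 25.1, 23.9 and 24.5. Lss, which closes the rings to lanosterol, had 2.44, 2.33 and 2.27 against 14.1, 14.3 and 14.9. Cyp51, the lanosterol demethylase, had 7.13, 8.48 and 6.43 against 53.7, 51.7 and 50.8 RPKM, the highest stimulated level of the sterol-step enzymes and a 7.09-fold difference. The log2 changes of Sqle, Lss and Cyp51 were 2.29 ± 0.08, 2.20 ± 0.06 and 2.68 ± 0.09.

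The 4-methyl sterol oxidase Msmo1 had 2.94, 3.62 and 3.51 RPKM unstimulated and 17.98, 18.7 and 20.7 stimulated, a log2 change of 2.21 ± 0.09. Its partners in demethylation rose less. Nsdhl, the X-linked dehydrogenase, had 4.37, 4.21 and 5.92 against 18.2, 17.98 and 19.4, a log2 change of 1.76 ± 0.12. Hsd17b7, the keto-reductase, had 1.89, 1.80 and 1.69 against 6.07, 5.79 and 5.63, a log2 change of 1.29 ± 0.07. Dhcr7, which reduces 7-dehydrocholesterol to cholesterol, had 4.41, 4.99 and 3.98 against 14.8, 14.4 and 15.8, a log2 change of 1.56 ± 0.09. In each of these genes the groups stood well apart. The smallest changes among the enzymes were in Sc5d, the sterol desaturase (log2 0.93 ± 0.09, 5.96 ± 0.75 against 12.2 ± 0.17 RPKM), Tm7sf2, a sterol reductase (0.84 ± 0.08, 1.58 ± 0.06 against 3.62 ± 0.16) and Ebp, the X-linked sterol isomerase. Ebp had 10.2, 8.45 and 9.49 RPKM against 15.2, 14.7 and 15.5, a log2 change of 0.64 ± 0.08 (adjusted p = 0.000253). Before stimulation Ebp was the most abundant of the 11 enzymes, at rank 13 of the 31 genes, and after it stood at rank 17. Of the Tm7sf2 exonic bases, 12.1% overlap Vps51 on the same strand.

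Of the 5 control genes, 4 rose, with a median log2 change of 0.70, and Insig1 rose the most of them. Srebf2 encodes SREBP2, which mainly drives cholesterol genes, and was the most abundant of the 31 genes before stimulation. Its RPKM was 59.5, 56.9 and 47.9 against 107.5, 114 and 115, a log2 change of 1.02 ± 0.09. Srebf1 encodes SREBP1, which mainly drives fatty acid genes, and had 18.6, 16.5 and 16.4 against 28.4, 28.5 and 28.7, a log2 change of 0.70 ± 0.06. The ratio of Srebf2 to Srebf1 RPKM was 3.19 ± 0.26 (SD, n = 3) before and 3.92 ± 0.12 after, and its libraries did not overlap between the groups. Insig1, itself a target of SREBP, had 17.2, 17.3 and 17.0 RPKM unstimulated and 54.7, 53.8 and 53.0 stimulated, the tightest groups of all 31 genes by the SE of the log2 change (1.59 ± 0.05). Insig2, the form that depends less on SREBP, had 3.89, 3.99 and 4.16 against 5.43, 5.54 and 5.84, a log2 change of 0.40 ± 0.07. The ratio of Insig1 to Insig2 therefore went from 4.28 ± 0.17 to 9.62 ± 0.50. Scap, the escort of SREBP, had 15.3, 15.1 and 13.1 RPKM against 15.9, 17.4 and 15.5. The gap between its groups was narrow, and the log2 change of 0.16 had a 95% interval of -0.04 to 0.35 (limma adjusted p = 0.112). Scap passed with median centring (log2 0.42), with edgeR on the summed allelic counts (0.45) and with DESeq2 (0.42), all of them upwards. Of its exonic bases, 13.2% overlap 5830462I19Rik on the other strand.

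The 6 fatty acid genes all rose by a log2 change of at least 1, with a median of 1.68. Acly, which makes acetyl-CoA from citrate in the cytosol, was already high at 35.9, 39.1 and 38.0 RPKM and reached 84.6, 83.3 and 86.8, a log2 change of 1.15 ± 0.05. Acaca, the carboxylase that makes malonyl-CoA, had 4.45, 4.10 and 5.20 against 14.2, 14.6 and 14.4, a log2 change of 1.47 ± 0.09. Of the Acaca transcript, 64.3% has a near-identical copy in Gm5182, so its level depends on how such reads were counted. Fasn, the synthase of palmitate, had 26.7, 27.1 and 24.3 against 85.2, 86.2 and 83.0, a log2 change of 1.67 ± 0.06. Elovl6, which lengthens palmitate to stearate, had 3.46, 3.28 and 4.62 against 14.5, 14.2 and 14.1, a log2 change of 1.68 ± 0.11. Of the Elovl6 transcript, 15.2% has near-identical stretches in 5 other genes. The chain from citrate to stearate thus rose at each of these steps, by 2.26-fold for Acly to 3.77-fold for Elovl6.

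The largest change of the 31 genes was in Scd2, one of 2 neighbouring desaturases measured here that turn stearate into oleate (Scd2 at chr19:44293674-44306864, plus strand, and Scd1 at chr19:44394455-44407879, minus strand, mm10). Scd2 had 9.63, 11.4 and 13.5 RPKM unstimulated and 238, 237 and 249 stimulated. The means were 11.5 ± 1.96 and 241 ± 6.92 (SD, n = 3 each), a 20.9-fold difference with a log2 change of 4.28 ± 0.11 (adjusted p = 6.97e-07), which exceeded the change of 99.9% of all genes tested. Scd1 had 11.9, 8.58 and 16.5 against 64.7, 57.1 and 63.2, a log2 change of 2.27 ± 0.21. The Scd1 libraries were the most scattered before stimulation, with the highest value in unstimulated replicate 3, the library with the highest myeloid sum (3688 summed RPKM) and the highest Mki67. Scd2 was also highest there, and the part of those cells in either result was not tested. Without that library Scd1 and Scd2 still passed, but unstimulated replicates 1 and 2 also had high myeloid sums (1366 and 1764). The ratio of Scd2 to Scd1 RPKM was 0.99 ± 0.30 before and 3.92 ± 0.23 after stimulation, and Scd2 moved from rank 11 to rank 1 of the 31 genes. Of the Scd2 transcript, 11.4% lies in stretches at least 95% identical to Scd1.

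The 3 genes on the export side fell. Abca1, the pump that loads cholesterol onto apolipoprotein A-I, had 9.64, 10.4 and 11.1 RPKM unstimulated and 1.38, 1.57 and 1.77 stimulated. The means of 10.4 ± 0.72 and 1.58 ± 0.20 differ 6.59-fold, a log2 change of -2.15 ± 0.09 (adjusted p = 3.24e-06). Abcg1, the pump that loads high-density lipoprotein, had 35.7, 35.0 and 35.3 against 4.25, 4.30 and 4.78, 7.95-fold less on average and a log2 change of -2.74 ± 0.06 (adjusted p = 4.22e-07). Abcg1 went from rank 3 to rank 28 of the 31 genes and Abca1 from rank 12 to rank 31. Nr1h2 encodes LXR beta, the receptor that switches these pumps on, and had 29.3, 27.7 and 26.2 RPKM against 13.8, 14.1 and 14.5, a log2 change of -0.92 ± 0.06. Its fall lies within the middle of all genes, since 26.6% of them had a lower value. Both pumps are also expressed by myeloid cells, whose 12 markers fell from a summed RPKM of 1366, 1764 and 3688 to 27.6, 25.8 and 33.1, with Adgre1 at 0 in all stimulated libraries. Over the unstimulated libraries that sum spanned 1366 to 3688, Abca1 9.64 to 11.1 and Abcg1 35.0 to 35.7. An order over 3 libraries is too little to read a relation from. The part of other cells in the fall was not tested.

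Other genes of the same pathways moved less uniformly, as the plot by pathway branch shows. Of 12 tested genes of the other sterol pathway list, 5 were higher, 3 lower and 4 did not pass, with a median log2 change of 0.16. Among the largest changes were those of Stard4, a sterol carrier (2.66, from 5.47 ± 0.26 to 39.9 ± 0.70 RPKM), and Acat2, which makes the acetoacetyl-CoA used by Hmgcs1 (2.46, from 7.11 ± 0.92 to 43.5 ± 1.77 RPKM). Both sit in the range of the sterol enzymes above. Of 13 genes of the isoprenoid branches, which make dolichol, ubiquinone and prenylated proteins, 6 were higher, 1 lower and 6 did not pass, with a median of 0.24. The largest were Rabggtb, a Rab prenyltransferase subunit (1.21), Pdss1 of ubiquinone synthesis (0.90), Nus1 of dolichol synthesis (0.86) and Coq2 (0.64). No isoprenoid gene reached the median of the mevalonate steps.

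Of 14 tested genes of sterol uptake, transport and esters, 7 were higher, 5 lower and 2 did not pass. Mylip, an LXR target that encodes a ubiquitin ligase of lipoprotein uptake, fell by 3.79 on the log2 scale, from 26.0 ± 2.42 to 0.96 ± 0.27 RPKM. Lrp1 and Apoe, a lipoprotein receptor and an apolipoprotein that are both strong in macrophages, had log2 changes of -3.28 and -3.13 beside the fall of the myeloid sum given above, and its part in them was not tested. Lrp8 rose by 1.78.

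Among 26 tested genes of the other fatty acid synthesis list, 15 were higher, 7 lower and 4 did not pass, with a median of 0.56. Fads2, a desaturase of polyunsaturated fatty acids, had 1.94, 2.42 and 7.19 RPKM against 49.9, 50.2 and 52.4, a log2 change of 3.57 ± 0.36, with unstimulated replicate 3 apart from the others. Slc25a1, which exports citrate from mitochondria for Acly, rose by 2.09 and Fads1 by 1.81. Acacb, the carboxylase isoform tied to mitochondria, had a log2 change of -1.74 (3.55 ± 0.24 to 0.36 ± 0.10 RPKM), opposite to Acaca. Of 16 tested genes of fatty acid oxidation, 9 were higher, 4 lower and 3 did not pass, and the largest change without further scaling was in Cpt1a, the carnitine palmitoyltransferase that admits fatty acids to mitochondria (-1.30, from 21.5 ± 1.64 to 8.12 ± 0.56 RPKM). The next were Acadl (0.97), Etfa (0.85) and Acaa2 (-0.75), of which Acadl and Etfa passed a log2 change of 1 with median centring and with edgeR on the summed allelic counts. With median centring, the higher and lower counts became 8 and 2 for the other sterol list, 10 and 0 for the isoprenoid branches, 9 and 4 for uptake, 18 and 7 for other fatty acid synthesis and 11 and 2 for oxidation.

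**Figure D3:**
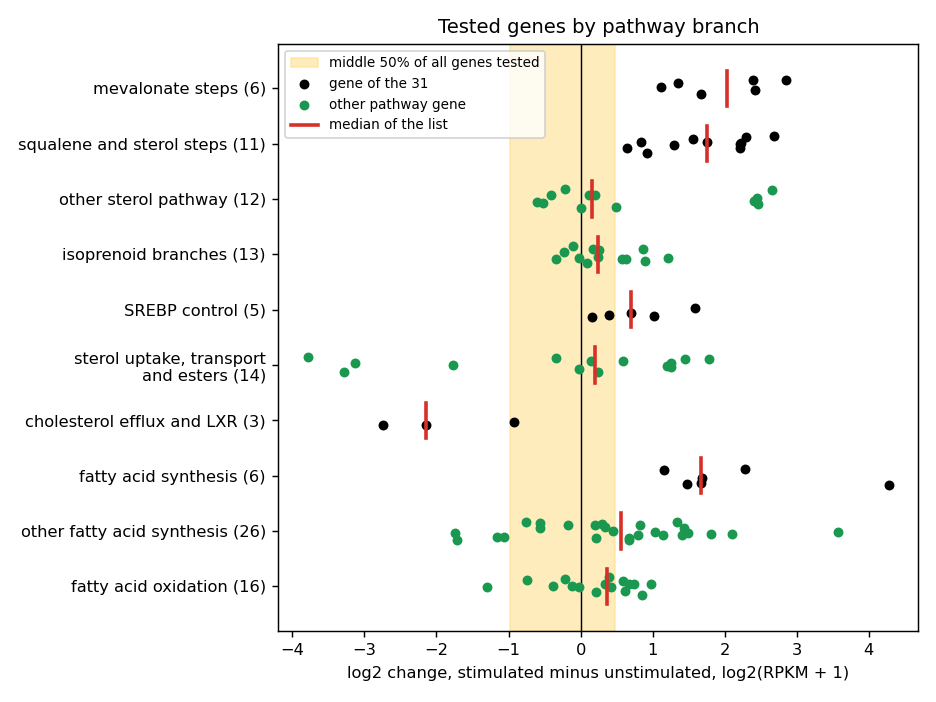
Log2 change (stimulated minus unstimulated, log2(RPKM + 1)) of each tested gene, in rows by pathway branch with the number of genes tested in parentheses. Black points are the 31 genes and green points other genes of the pathways, red bars are list medians and the yellow band is the middle 50% of all genes tested. The black synthesis rows lie to the right of the band, with medians of 2.03, 1.76 and 1.68, while the green lists have medians of 0.16 to 0.56 and members on both sides.

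The cross also allowed the mus and the cast copy of each gene to be read apart. In the 29 autosomal genes the cast share of allelic reads (edgeR, interaction of allele and group) was higher after stimulation in 5 and lower in 3, and 21 did not pass. Of the 12470 autosomal genes tested, 5.95% were higher and 4.96% lower. Groups of shares did not overlap in 9 genes upwards and 3 downwards, against 14.9% and 13.4% of all genes. The genes that passed came from the sterol steps (Fdft1, Lss), the control genes (Srebf1, Scap), the fatty acid genes (Fasn, Scd2, Elovl6) and efflux (Abca1). Log2 changes below are those of the ratio of cast to mus. No gene of the mevalonate steps passed, but Idi1 (log2 0.66, adjusted p = 0.0717) and Mvd (0.46, 0.0837) changed as much as some genes that did. Their shares before stimulation rest on only 358 and 657 allelic reads. Fdps (-0.59, on 46 reads) and Pmvk (-0.19) went the other way and did not pass. So this is not a pattern of the branch. The mix of cells also differed between the groups, with a myeloid sum of 1366 to 3688 against 25.8 to 33.1. Its part in the changed shares was not tested.

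The largest allelic change was in Abca1. Its cast share was 46.9%, 47.1% and 48.2% unstimulated and 57.6%, 62.9% and 61.6% stimulated, a log2 change of 0.79 (adjusted p = 0.000298) on 5609 and 1529 reads. Both alleles fell, mus from 88.6 ± 1.68 to 11.04 ± 1.31 and cast from 79.8 ± 3.45 to 17.2 ± 3.42 counts per M allelic reads (CPM). In this bulk RNA the mus copy thus fell further. Myeloid cells also express Abca1, and their part in this change was not tested. In Scd2 the cast share was 40.1%, 37.5% and 41.0% unstimulated and 47.8%, 46.5% and 47.3% stimulated, a log2 change of 0.45 (adjusted p = 3.2e-05) on 3296 and 126063 reads. Both copies of Scd2 rose, mus 20.9-fold and cast 28.5-fold. Cast stayed below mus in both groups, with log2 ratios of -0.61 and -0.16. In Scd1 the shares of 43.3%, 42.3% and 47.1% against 42.5%, 43.4% and 42.9% overlapped and the change did not pass.

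In Elovl6 the cast share was 36.4%, 45.0% and 47.8% before and 56.3%, 55.4% and 52.0% after (log2 0.66, adjusted p = 0.0105). The log2 ratio of cast to mus was -0.40 before and 0.26 after. In Fdft1 the share was 41.6%, 50.7% and 48.7% against 60.8%, 54.6% and 56.9% (log2 0.61, adjusted p = 0.0221). In Scap it was 56.1%, 49.5% and 51.3% against 57.3%, 59.3% and 62.4% (log2 0.43, adjusted p = 0.0339). These 3 calls are the less secure ones. Elovl6 was lost without unstimulated replicate 1 (0.0584) or stimulated replicate 1 (0.0541), and Fdft1 without unstimulated replicate 1 (0.128), stimulated replicate 1 (0.102) or stimulated replicate 3 (0.0587). The Scap call was lost with DESeq2 (adjusted p = 0.0722) and without unstimulated replicate 2 (0.12) or 3 (0.103) or stimulated replicate 2 (0.0717) or 3 (0.145).

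The cast share fell in 3 genes. Lss had 63.0%, 55.7% and 58.3% unstimulated and 51.2%, 51.3% and 51.8% stimulated (log2 -0.46, adjusted p = 0.0066). Srebf1 had 55.8%, 50.3% and 52.6% against 44.4%, 46.7% and 44.8% (log2 -0.44, adjusted p = 0.0081), and Fasn had 54.5%, 53.8% and 55.8% against 50.8%, 50.3% and 49.1% (log2 -0.27, adjusted p = 0.0051). In Lss and Fasn the stimulated libraries lay near equal parts, while in Srebf1 they crossed to a mus excess. Among the genes that did not pass, Idi1 had 36.2%, 40.7% and 25% against 44.4%, 44.5% and 46.6% (log2 0.66, adjusted p = 0.0717). Idi1 passed with the replicate number as a block, where edgeR gave an adjusted p of 0.0454, and without unstimulated replicate 2 (0.0352). Srebf2, with 7691 and 28896 reads, had 49.7%, 48.3% and 47.1% against 51.0%, 51.9% and 51.8% (log2 0.19, adjusted p = 0.0673) and passed without unstimulated replicate 1 (0.0404). Cyp51, with 48.0% ± 3.89 and 45.1% ± 0.32, passed downwards without unstimulated replicate 2 (0.0329). Acly, with the most reads before stimulation (10049), had shares of 48.9% ± 0.84 and 50.7% ± 0.07 (SD, n = 3 each) that did not overlap, and Hmgcs1 had 55.4% ± 3.34 and 56.9% ± 0.93. In Insig2, replicate 2 had the highest cast share in both groups, 73.6% and 67.0%, against 43.1% to 57.6% in the other libraries.

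**Figure D4:**
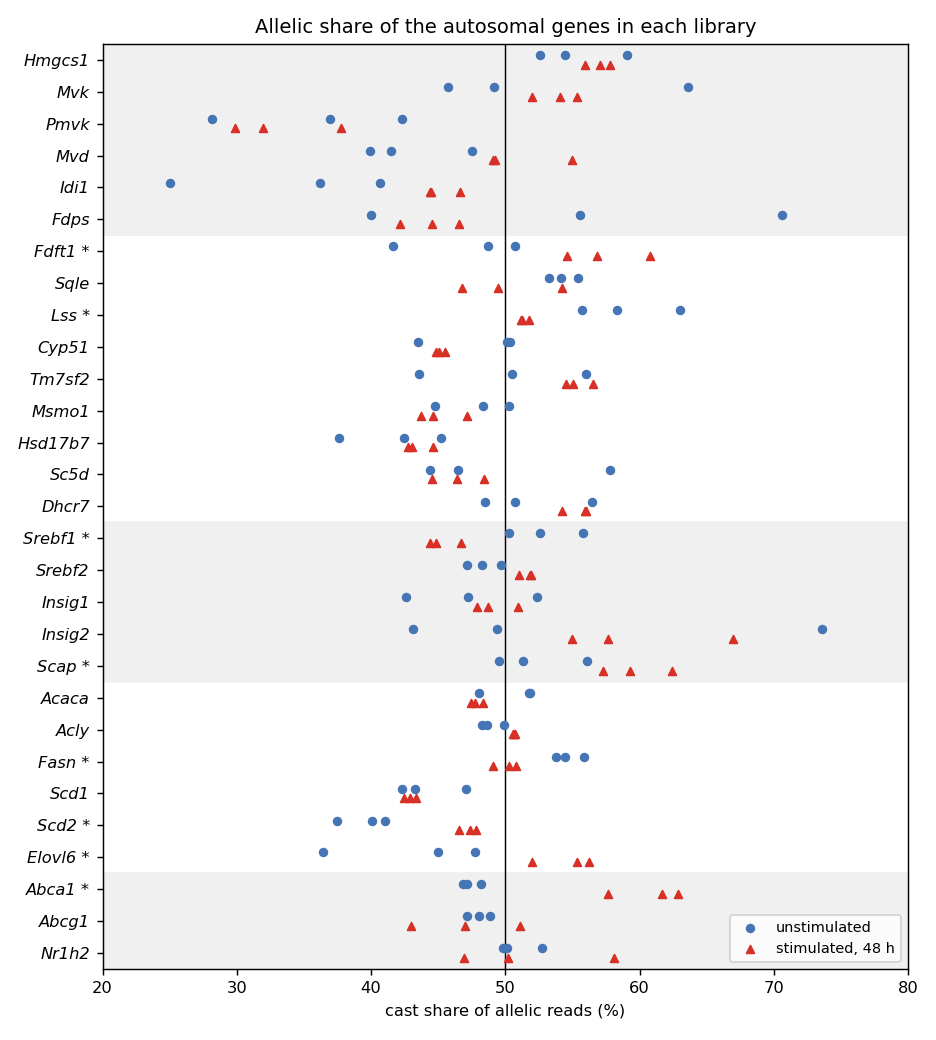
Cast share of allelic reads (%) for the 29 autosomal genes in the 3 unstimulated (blue circles) and 3 stimulated (red triangles) libraries, with a line at 50%, and an asterisk where the change passed the test. Abca1, Elovl6, Fdft1, Scap and Scd2 move to the right with stimulation and Fasn, Lss and Srebf1 to the left. Fdps, with few reads before stimulation, scatters widely there, and so does Insig2, whose replicate 2 is highest in both groups.

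Within a group, cast and mus differed in 10 of the 29 genes before stimulation, with cast higher in 3 and lower in 7, against 12.2% and 18.5% of all genes (edgeR). After stimulation cast was higher in 6 and lower in 7, against 15.4% and 20.5%. Hmgcs1 favoured cast in both groups, at log2 ratios of 0.31 and 0.40. Pmvk favoured mus in both groups, at -0.82 and -1.01, and Hsd17b7 (-0.48 and -0.38), Scd1 (-0.32 and -0.41) and Scd2 did so too. Lss (0.54) and Fasn (0.27) favoured cast only before stimulation by this test, and Idi1 (-0.94), Mvd (-0.40) and Elovl6 favoured mus. After it, Abca1 (0.64), Scap (0.57), Fdft1 (0.43), Dhcr7 (0.31) and Elovl6 (0.26) favoured cast, and Cyp51 (-0.28), Msmo1 (-0.28) and Srebf1 (-0.27) favoured mus. Several of the smaller differences rested on single libraries or on the tool. Before stimulation, the Mvd difference was lost with TMM factors per allele column (adjusted p = 0.0742), with DESeq2 (0.0638) and without unstimulated replicate 2 (0.126) or 3 (0.175). That of Elovl6 was lost with those factors (0.0532) and without unstimulated replicate 1 (0.25), and that of Hsd17b7 with DESeq2 (0.0511) and without unstimulated replicate 2 (0.131). After stimulation, Elovl6 was lost with DESeq2 (0.086) and without any 1 stimulated library (0.0549 to 0.235). Without stimulated replicate 1 the calls of Fdft1 (0.0533), Msmo1 (0.0734), Hsd17b7 (0.066) and Dhcr7 (0.0546) were lost as well, which left 3 genes favouring cast. Msmo1 (0.0545) and Hsd17b7 (0.0751) were also lost without stimulated replicate 2, and Dhcr7 (0.0624) without stimulated replicate 3. A mapping advantage of the reference allele was not tested here.

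Nsdhl and Ebp lie on the X, where the cast copy is the silent one. Nsdhl had no cast read among 457 allelic reads before stimulation (95% exact Clopper-Pearson interval 0% to 0.804%). The stimulated libraries had 2, 2 and 0 cast reads, 4 of 3057 (0.131%, interval 0.0357% to 0.335%). Ebp had 0 of 1197 before (interval 0% to 0.308%) and 2 of 3737 after (0.0535%, interval 0.00648% to 0.193%). The stimulated shares lie below the upper limit of the unstimulated ones, so a difference was not detectable at this depth. These intervals cover counting error only. The rise of both genes was therefore carried by the mus copy, from 13.5 ± 4.74 to 57.2 ± 5.97 CPM for Nsdhl and from 35.7 ± 4.13 to 70.2 ± 2.21 for Ebp, or 4.22-fold and 1.97-fold.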

How the data were processed

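RNA from splenic CD3+ T cells (3 unstimulated, 3 stimulated samples, labelled biological replicates) was deposited as 2 tables. The authors' RPKM values cover both alleles, and their whole-number counts cover each allele, per the file headers. STAR 2.7.1a, featureCounts and mm10 are named in the submitters' processing notes. Not given in the sources used here are the annotation, the strand setting, the assignment of reads to alleles and the RPKM denominator. P-values set each difference against the spread between these samples.

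RPKM was compared with limma 3.58.1 (trend, two-sided, R 4.3.3) on log2 values of RPKM with a pseudocount of 1, keeping genes that reached an RPKM of 1 in 3 or more libraries. These fold changes understate the change of low genes. Folds are ratios of mean RPKM. Allele counts were compared with edgeR 4.0.16 (quasi-likelihood, two-sided), with 1 term per library, for autosomal genes with at least 30 allelic reads in each group. P-values were adjusted by the Benjamini-Hochberg method across every gene in a fit and called under 0.05. DESeq2 1.42.0, other scalings, filters and pseudocounts, and leaving out each library were alternatives. On simulated 2-fold changes, limma recovered 93.0% of 200 changed genes among 13288 and edgeR 86.5% of 200 changed shares among 12470. False calls were 6.06% and 5.46% of the calls. The changed genes were drawn from those with higher levels or more reads, and the spread of the simulated allele counts was set in advance. The changed shares called here were all under 2-fold, so these rates do not carry over to them or to genes with few reads.

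Replicate numbers are alike in both groups. Deviations of the log2 ratio of cast to mus correlated at 0.28, 0.30 and 0.18 between same-numbered libraries over 9043 genes, which pairs the numbers there, from the data. The calls of the report are from the fit without that block, and the blocked fit, an alternative, adds Idi1. Positions come from GENCODE M21.

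The genes and lists were chosen with earlier results of these data known. Values per library are given for genes that pass with a log2 change of at least 1, for named partner pairs and for X-linked genes. Up to 4 genes of each other list, those with the largest changes that pass, are named, except that some of these are not reported here. In the allele tests, the genes that pass and the best-covered others are named.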

Additional observations from a re-analysis of the deposited data

Results flagged for a closer look

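The effect of the allele differed between unstimulated and stimulated samples in 8 genes, by the test of that difference itself (edgeR interaction of allele and group, adjusted p under 0.05 over 12470 genes). The mix of cells differed between these samples too, and its part was not tested. As the change of the log2 ratio of cast to mus, the values were 0.79 for Abca1, 0.66 for Elovl6, 0.61 for Fdft1, 0.45 for Scd2 and 0.43 for Scap upwards. They were -0.46 for Lss, -0.44 for Srebf1 and -0.27 for Fasn downwards. Over all alternatives run, the values of Abca1, Scd2, Lss, Srebf1 and Fasn kept their direction and their side of the threshold, with the largest adjusted p at 0.00366, 0.000698, 0.0364, 0.0441 and 0.0357. The other 3, Elovl6, Fdft1 and Scap, kept their direction and each missed the threshold when single libraries were left out.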

How the results depend on the processing

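The count of genes higher after stimulation was 25 to 28 over all settings, with 25 when an RPKM of at least 5 was required and fewer of the genes were tested, 26 without any 1 stimulated library, since Fdps then fell under the filter, and 28 with median centring or a count model. The count of lower genes was 3 in each. With the replicate number as a block, RPKM gave 27 higher and 3 lower genes, and all genes gave 4048 higher and 6416 lower. RPKM deviations of same-numbered libraries correlated at 0.00603, 0.0611 and 0.0908, and not every library correlated best with its own number. For the allele ratio the block gave 6 higher and 3 lower genes, adding Idi1, and changed no other call of a changed share. It gave 7 and 8 in stimulated cells in place of 6 and 7. Leaving out 1 library at a time, the genes with a higher cast share after stimulation numbered 3 to 5, lowest without stimulated replicate 1 or 3, and those favouring cast in stimulated cells 3 to 7, lowest without stimulated replicate 1. The cause was not tested. Scaling moved the split of all genes from 4148 higher and 6494 lower to 5432 and 5206 with median centring and 5394 and 4878 with quantile normalisation. Among the 31 genes and the other genes named, no log2 change reversed in these settings, while the median of all genes went from -0.24 to 0.02 with median centring. Depth limits Fdps, Tm7sf2, Idi1 and Pmvk, whose shares before stimulation rest on 46 to 522 allelic reads.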
